A study of Mus musculus with 18 samples.

Results

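PD7591 is 1 of 3 mouse pancreatic ductal adenocarcinoma lines in this RNA-seq series, and its 6 libraries of 18 were set against the 12 libraries of PD454 and PD883. The 6 were chosen by the line name in their labels, and no measured value entered the choice. Cells were cultured for 48 h in 1 of 3 ways: in the solvent DMSO, in ionomycin at 2.5 µM, which lets calcium ions into cells, or in TGFb at 10 ng/ml, a growth factor known to push carcinoma cells towards epithelial-mesenchymal transition (EMT). The groups were thus PD7591, PD454 and PD883, each with DMSO, ionomycin or TGFb, and each of the 9 groups had 2 libraries. All lines share a mixed strain background and a culture medium with insulin, dexamethasone and cholera toxin; the labels used here give no driver alleles, sex or age, and no sign that duplicates came from separate cultures. The p-values over all treatments therefore measure the spread between duplicates and of line differences between treatments. Those within treatments, and of the dependence on treatment, measure the spread between duplicates alone. The line, its tumour and its strain background cannot be told apart, since PD7591 is a single line.

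Pancreatic ductal adenocarcinoma cells keep part of the programme of the foregut epithelium. GATA and FOXA factors hold genes of ductal and gut-like epithelium in an accessible state, and human tumours rich in such factors are called classical, while those that have lost them are called basal-like. TGFb acts through SMAD proteins to lower E-cadherin and keratins, and BMP signals, which use other SMAD proteins, raise the ID genes.

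Library totals ran from 17591005 to 37894692 counts, and duplicates correlated at r = 0.986 to 0.996 over genes. In libraries 8, 12, 14 and 18, all of the other lines, short transcripts were more abundant. Deviations of log2 levels from the gene mean correlated with log2 exon length there at r = -0.219 to -0.113. This r was -0.0311 to 0.169 in PD7591 and -0.0681 to 0.14 in the remaining libraries of PD454 and PD883. Ribosomal RNA, counted as Rn45s, made up 0.271% to 4.11% of counts in PD7591 and 0.256% to 3.48% in the other lines. Ductal markers summed to 5140 to 6290 CPM (counts scaled to a common library size) in PD7591 and 5260 to 9940 CPM in PD454 and PD883. Much of this sum in PD7591 was Krt8 at 1610 to 1820 CPM and Krt18 at 1470 to 2180 CPM. Prom1 and Onecut1 were under 1 CPM in every library, and Epcam was 1.19 to 3.43 CPM in PD7591 and 0.732 to 4.3 in the others. Krt19 ran from 4.12 to 544 CPM in PD7591 and from 7.32 to 1750 in the others. Of the markers of other cells, 7 of 11 fibroblast, 7 of 8 endothelial, 7 of 10 immune, 10 of 12 acinar, 4 of 8 neural and glial and 11 of 12 endocrine genes stayed under 1 CPM in every library. Of these, 6 endocrine and 3 acinar genes were at 0 in every library. Fibroblast genes summed to 2.35 to 9.91 CPM in PD7591 and 2.69 to 102 CPM in the others, and neural and glial genes to 77.6 to 152 CPM in PD7591 and 95.4 to 181 CPM in the others. Hepatocyte-type genes summed to 33.7 to 954 CPM in PD7591 and 14.3 to 3100 CPM in the others. In such bulk samples, fewer cells of a type and less RNA per cell cannot be told apart.

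Of 13338 autosomal genes tested, 4516 (33.9%) differed between PD7591 and the equally weighted mean of PD454 and PD883 at an adjusted p under 0.05, 2132 higher (16%) and 2384 lower (17.9%). The median log2 fold change over all tested genes was -0.01. In the same fit of all 18 libraries, 4199 genes (31.5%) were called against PD454 and 5525 (41.4%) against PD883. Both comparisons use the same PD7591 libraries. Of the 4516 genes, 333 had opposite signs against PD454 and against PD883, so a mean over both lines can hide a gene that is high in one of them.

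Within DMSO 3380 genes (25.3%) were called, within ionomycin 3348 (25.1%) and within TGFb 1854 (13.9%), as contrasts in 1 fit of all groups that share its estimate of spread. Fitted on the libraries of 1 treatment alone, the counts were 2155, 3565 and 1330. Of the 3380 genes called within DMSO, 2715 (80.3%) had the same sign in ionomycin and in TGFb, whose libraries are others, and the sign was the same in the 3 treatments for 53.3% of all tested genes. The median absolute log2 difference over all tested genes was 0.35 in DMSO, 0.33 in ionomycin and 0.25 in TGFb, at a median SE of 0.20 in each.

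The calls of some genes named below rest on part of the libraries. The call was lost in the DMSO libraries alone for 9 named genes (Ccnd2, Cxcl1, F2rl1, Grb10, Id2, Itga3, Itgb1, Krt18 and Mtap) and in the ionomycin libraries alone for 11 (Bmp4, Ccnd2, Cdh2, Dusp4, F2rl1, Grb10, Itga3, Itgb1, Ror2, Spry1 and Zeb1). In the TGFb libraries alone it was lost for 25: Abcg2, Adamts9, Apoa1, Cdh2, Cdhr5, Cdkn1a, Chst2, Cxcl1, Cxcl5, Cyp2s1, Erbb2, Foxa3, Fzd8, Gata6, Gsta2, Gstm1, Id2, Krt8, Krt18, Krt19, Lgr4, Muc1, Pmaip1, Polk and Zeb1. With duplicates summed to 1 library per group it was lost for 14: Cdh2, Cdkn1a, Cyp1b1, Elf3, F2rl1, Id2, Itgb1, Krt8, Krt18, Muc1, Pmaip1, Sox9, Spry1 and Zeb1. In a refit without the 6 libraries of PD883, against PD454 alone, 7 were not called (Cdh2, Cdx2, Cldn18, F2rl1, Gata6, Muc1 and Zeb1). In a refit without the 6 libraries of PD454, against PD883 alone, 3 were not called (Krt8, Krt18 and Sox9). For the genes named below, values against PD454 alone or PD883 alone come from these refits.

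A stricter group of 686 genes was called against each other line and within each treatment, always with the same sign: 251 were higher (1.88% of tested genes) and 435 lower (3.26%) in PD7591. Of these, 63 were at least 8 times higher and 52 at least 8 times lower. Over all tested genes, 123 (0.922%) had all 6 PD7591 libraries above all 12 others, and 122 (0.915%) had all 6 below. The 686 genes were chosen on these differences, so their values are given as a description of the line.

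**Figure D1:**
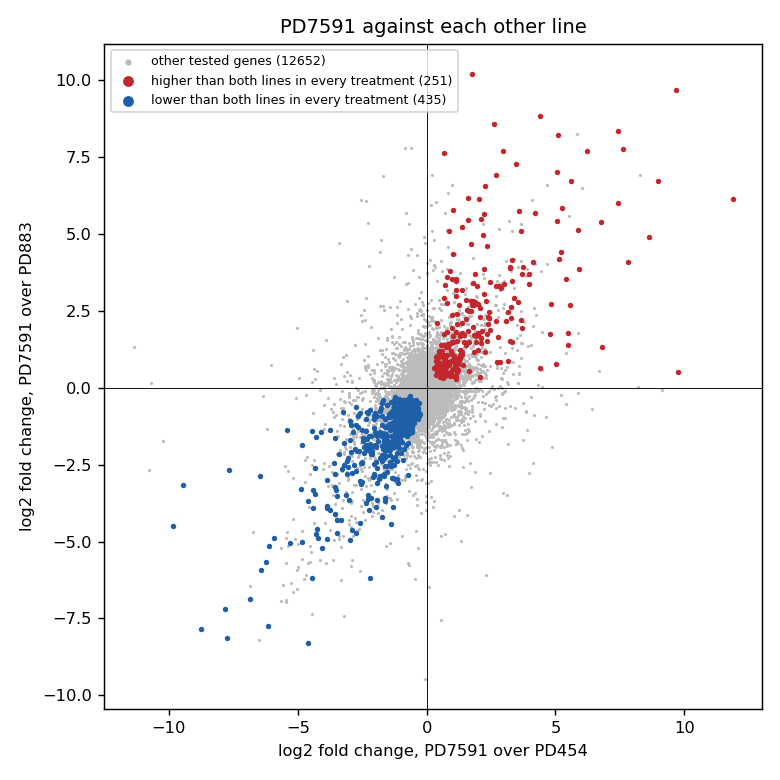
Each point is 1 of 13338 tested genes, with the log2 fold change of PD7591 over PD454 on the x axis and over PD883 on the y axis. The 251 red genes were higher and the 435 blue genes lower than both lines and within every treatment; the axes share the PD7591 libraries, which alone makes points lean along the diagonal.

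Transcription factors of foregut identity differed in both directions in PD7591, with Gata5 high and Gata4 and Foxa1 low. Of 24 tested pancreatic and foregut lineage factors, 7 were higher and 5 lower, with a median log2 fold change of -0.05, which is 29.2% and 20.8% beside the 16% and 17.9% of all tested genes. HOX genes, which mark position along the body, were too low to test in all 39 cases.

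Gata5, a GATA factor of foregut endoderm and heart, had 60.6 and 50.6 CPM in PD7591 with DMSO, against 5.43 and 5.95 in PD454 and 3.48 and 3.36 in PD883. With ionomycin it had 83 and 63.7 CPM in PD7591, against 6.69 and 8.08 in PD454 and 3.58 and 6.75 in PD883. With TGFb it had 2.69 and 2.89 CPM in PD7591, against 0.422 and 0.369 in PD454 and 0.232 and 0.101 in PD883. All lines thus had their lowest Gata5 with TGFb, and PD7591 was above both others at every treatment, with log2 differences of 3.65, 3.57 and 3.49 (3.58 ± 0.13 SE over all, adjusted p = 6.07e-13). Gata5 was named after its values were seen.

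Gata4, a sister factor, moved the other way. It had a lowest, median and highest level of 3.53, 9.61 and 12 CPM in PD7591, against 28.6, 55.3 and 81.1 in PD454 and 19.9, 63.6 and 72.9 in PD883. No PD7591 library reached the lowest of the others, and the log2 fold change was -2.73 ± 0.11 (adjusted p = 1.94e-12). Gata6, the family member used to tell classical tumours, was 19.4, 71.5 and 90.6 CPM in PD7591, 22.4, 56.7 and 78.6 CPM in PD454 and 9.04, 32.5 and 41.7 CPM in PD883. Its ranges overlapped, at a log2 fold change of 0.59 ± 0.14 (adjusted p = 0.00283). Against PD454 alone the Gata6 difference was 0.18 (adjusted p = 0.314) and in the TGFb libraries alone 0.20 (adjusted p = 0.664), so the call rests on PD883.

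Foxa1, a pioneer factor that opens chromatin in endoderm, was 1.4, 2.14 and 3.36 CPM in PD7591, below all 12 other libraries, which ran from 6.11 to 18.4 CPM (log2 fold change -2.27 ± 0.19, adjusted p = 4.12e-08). Foxa3, of the same family, was lower by a log2 fold change of -1.55 ± 0.27 (adjusted p = 0.000222). Foxa2 had a median of 99.5 CPM in PD7591, 98.3 in PD454 and 84.4 in PD883, at a log2 fold change of -0.02 ± 0.19 (adjusted p = 0.958). Of the FOXA genes, then, Foxa1 and Foxa3 were called lower and Foxa2 was not called.

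Prox1, a homeobox factor of the early liver and pancreas buds, was 3.78 to 6.44 CPM in PD7591, above all others at 0 to 1.74 CPM, with a log2 fold change of 4.09 ± 0.25 (adjusted p = 7.73e-10). Hhex, which patterns the ventral foregut, was higher by 0.87 ± 0.09 on the log2 scale and Klf4, a factor of differentiated gut epithelium, lower at -0.83 ± 0.12 (adjusted p = 2.43e-05). Sox9, a factor of duct and progenitor cells, was called higher by 1.26 ± 0.27, but its range of 18.3 to 158 CPM in PD7591 overlapped 5.8 to 78.8 in PD454 and 20.1 to 113 in PD883. Against PD883 alone it was 0.57 (adjusted p = 0.0995), and with duplicates summed its adjusted p was 0.0729. Cdx2, the intestinal homeobox factor, was called lower at -1.75 ± 0.24 (adjusted p = 1.77e-05), with medians of 4.62 CPM in PD7591, 4.69 in PD454 and 22.6 in PD883. Against PD454 alone Cdx2 was -0.73 (adjusted p = 0.0606), so its call rests on PD883.

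**Figure D2:**
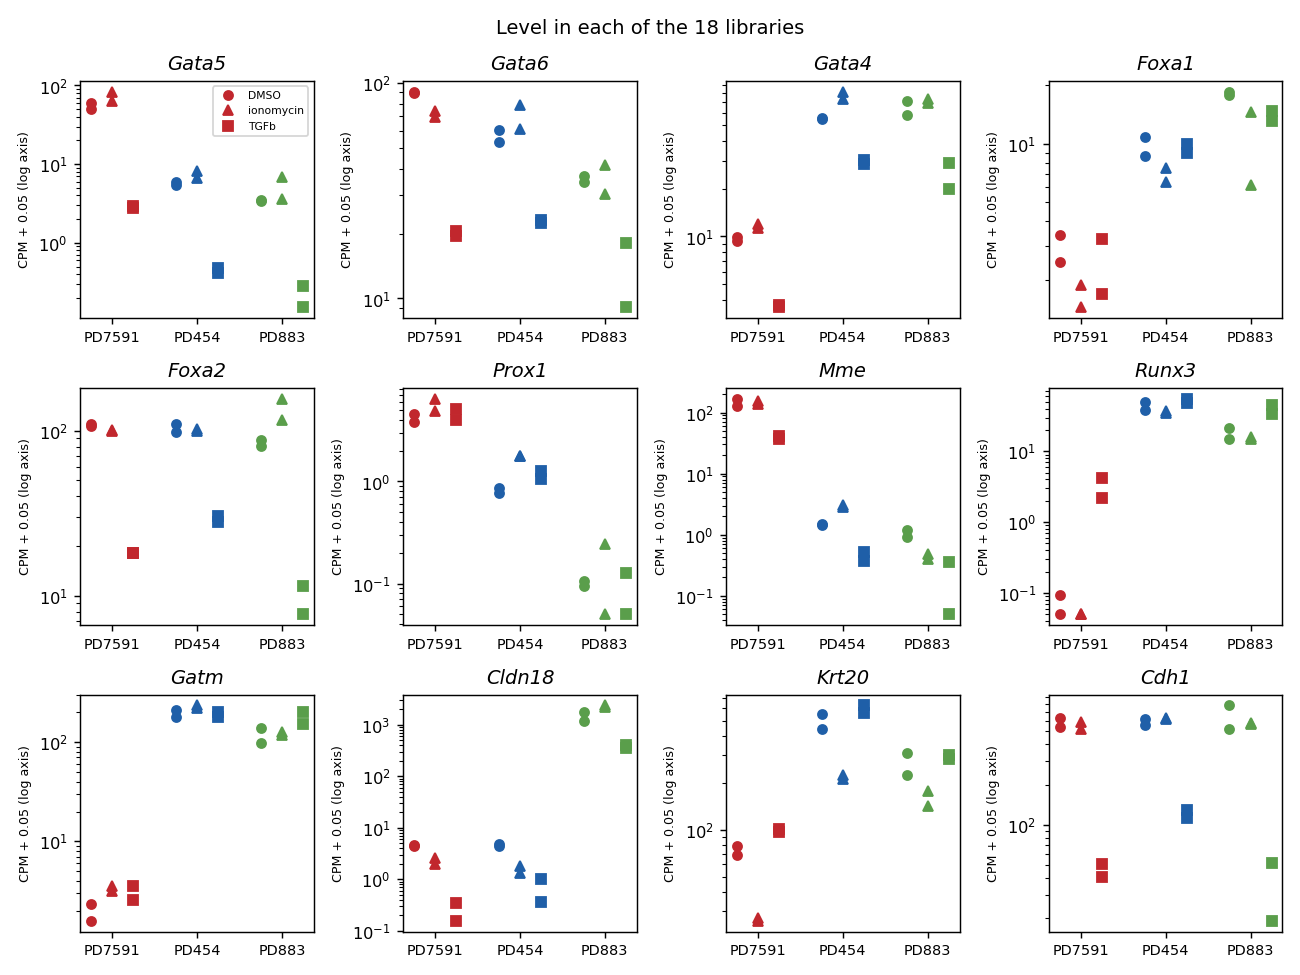
CPM plus 0.05 on a log axis for 12 genes in every library, PD7591 left of PD454 and PD883, with circles for DMSO, triangles for ionomycin and squares for TGFb. Gata5, Prox1 and Mme are higher and Gata4, Foxa1, Runx3, Gatm and Krt20 lower in PD7591 at each treatment, while Cldn18 is high in PD883 alone and Cdh1 is similar in all lines with DMSO.

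The promoters of some named genes, picked by hand and not by rank, are shown with every CG dinucleotide, the site of DNA methylation, in capitals. They are RefSeq windows on GRCm38.p6 from 250 bases before to 50 after the start of the gene, given 5′ to 3′ on the gene's strand. Gata5 (chr2:180334630-180334929, minus strand, 26 CG) and Zrsr1 (chr11:22971755-22972054, plus strand, 10 CG) were higher in PD7591. Runx3 (windows chr4:135120395-135120694 with 8 CG and chr4:135152295-135152594 with 45 CG, plus strand), Gatm (chr2:122611228-122611527, minus strand, 22 CG) and Foxa1 (chr12:57546062-57546361, minus strand, 26 CG) were lower. DNA methylation itself was not measured.
Gata5: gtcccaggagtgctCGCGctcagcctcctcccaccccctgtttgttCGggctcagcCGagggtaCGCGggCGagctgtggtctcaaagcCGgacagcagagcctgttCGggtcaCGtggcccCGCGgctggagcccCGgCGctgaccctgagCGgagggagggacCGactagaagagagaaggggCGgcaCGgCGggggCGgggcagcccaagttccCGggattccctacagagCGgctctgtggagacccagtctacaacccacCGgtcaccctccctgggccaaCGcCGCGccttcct
Zrsr1: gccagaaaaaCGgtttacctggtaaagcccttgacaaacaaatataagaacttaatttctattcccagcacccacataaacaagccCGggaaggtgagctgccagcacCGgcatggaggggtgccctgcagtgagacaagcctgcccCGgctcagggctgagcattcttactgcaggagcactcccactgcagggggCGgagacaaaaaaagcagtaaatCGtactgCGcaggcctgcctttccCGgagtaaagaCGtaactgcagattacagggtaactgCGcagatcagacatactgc
Runx3 first window: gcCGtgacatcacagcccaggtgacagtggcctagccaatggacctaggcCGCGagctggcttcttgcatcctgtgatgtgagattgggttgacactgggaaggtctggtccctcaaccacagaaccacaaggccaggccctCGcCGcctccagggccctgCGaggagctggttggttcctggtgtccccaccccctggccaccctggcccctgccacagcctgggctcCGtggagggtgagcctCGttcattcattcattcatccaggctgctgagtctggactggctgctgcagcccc
Runx3 second window: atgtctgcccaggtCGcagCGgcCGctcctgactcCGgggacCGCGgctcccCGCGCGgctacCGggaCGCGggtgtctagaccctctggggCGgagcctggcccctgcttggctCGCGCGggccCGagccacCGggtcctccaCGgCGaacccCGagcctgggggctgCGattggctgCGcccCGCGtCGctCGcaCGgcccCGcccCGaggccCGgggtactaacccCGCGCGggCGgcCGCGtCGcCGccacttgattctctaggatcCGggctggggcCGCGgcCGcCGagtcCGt
Gatm: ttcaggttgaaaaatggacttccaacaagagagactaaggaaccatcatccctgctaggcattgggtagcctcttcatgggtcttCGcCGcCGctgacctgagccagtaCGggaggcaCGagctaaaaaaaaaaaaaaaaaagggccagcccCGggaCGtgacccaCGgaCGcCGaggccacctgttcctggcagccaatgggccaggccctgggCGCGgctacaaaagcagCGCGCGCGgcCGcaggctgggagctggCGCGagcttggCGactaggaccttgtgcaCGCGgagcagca
Foxa1: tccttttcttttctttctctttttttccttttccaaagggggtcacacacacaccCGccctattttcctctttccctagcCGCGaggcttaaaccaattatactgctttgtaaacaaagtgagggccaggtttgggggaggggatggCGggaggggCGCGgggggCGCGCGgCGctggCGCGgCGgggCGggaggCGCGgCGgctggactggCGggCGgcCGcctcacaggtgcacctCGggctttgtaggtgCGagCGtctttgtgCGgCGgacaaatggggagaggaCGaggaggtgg

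Over the stricter group, 183 of the 251 higher and 320 of the 435 lower genes had a window in the RefSeq table, as did 10174 of all tested genes. The first window listed for a gene held a median of 23 CG in higher genes and 18 in lower genes, against 21 in all tested genes. Windows with 5 CG or fewer made up 10.9% of higher and 17.5% of lower genes, against 11.3% of all. The letters TGANTCA, which AP-1 factors bind, were found on either strand in 2.7% of higher and 8.4% of lower genes, against 5.5% of all. CATTCC, the TEAD motif, was in 9.8% of higher and 16.6% of lower genes, against 12% of all, CACCTG, bound by SNAIL and ZEB factors, in 18.6% and 23.8%, against 17.9%, and AGATAA, bound by GATA factors, in 4.4% and 5.9%, against 6.2%. These shares describe letters in the windows and are not evidence of binding.

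The genes with the largest excess in PD7591 over the mean of the other lines had varied functions. Mme, the cell surface endopeptidase neprilysin (chr3:63295211-63383713), had 130 and 169 CPM in PD7591 with DMSO, against 1.43 and 1.41 in PD454 and 0.855 and 1.14 in PD883. With ionomycin PD7591 had 140 and 154 CPM, against 2.82 and 3.02 in PD454 and 0.348 and 0.44 in PD883, and with TGFb 37.1 and 41.9, against 0.475 and 0.323 in PD454 and 0 and 0.303 in PD883. The difference was 6.97 ± 0.22 on the log2 scale (adjusted p = 5.81e-14), and within treatments it was 6.96, 7.08 and 7.14.

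Zrsr1, an imprinted gene of a splicing factor, was 23.2, 28.6 and 34.4 CPM in PD7591, against at most 0.24 CPM in PD454 and 0.342 in PD883 (7.69 ± 0.26, adjusted p = 1.81e-13). Prdm16, a chromatin regulator of brown fat and stem cells, was 3.93 to 17.1 CPM in PD7591 and at most 0.795 in the others (6.77 ± 0.27, adjusted p = 1.96e-12). Rps4l, which resembles other ribosomal protein genes so that its reads may be shared, had 2593 counts in PD7591 and 0 in PD454, at least 965-fold higher when PD454 is set to a floor of 3 counts over its 6 libraries. PD883 had 45 counts of Rps4l, at most 0.48 CPM. Zrsr1, Prdm16 and Rps4l had no overlap between PD7591 and the other libraries.

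Epb41l4a, a protein of the cell cortex, was 78.2, 89.7 and 98.5 CPM in PD7591, against 8.92, 11 and 13.4 in PD454 and 0.149, 0.472 and 0.627 in PD883 (5.34 ± 0.13, adjusted p = 2.48e-15). Gpc6, a cell surface proteoglycan, was 7.55 to 38.7 CPM in PD7591, against 1.89 to 6.37 in PD454 and 0 to 0.228 in PD883 (5.60 ± 0.30). Both show the order PD7591, PD454, PD883, with no overlap between PD7591 and the rest. Ranbp17, a nuclear transport receptor, had 800 counts in PD7591 and 0 in PD883, at least 313-fold higher with PD883 at the same floor. PD454 held 260 counts of Ranbp17, at 0.739 to 3.13 CPM, against 4.53 to 8.68 CPM in PD7591. Its log2 fold change was 1.75 without the PD883 libraries.

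Other genes at the top of the list were Mtus2, a microtubule-associated protein (7.89 ± 0.35), Rassf9 of the RASSF family (7.85 ± 0.39), Sh3tc2, known from the myelin of nerves (6.65 ± 0.34), Tox3, an HMG-box factor (6.61 ± 0.31), Megf6 (6.05 ± 0.36), Aim2, a sensor of cytosolic DNA (5.56 ± 0.26), Glrp1 (5.49 ± 0.50) and C2, a complement component (5.25 ± 0.48). Only Tox3 of these overlapped the other lines, with 0.299 CPM in its lowest PD7591 library against 0.713 CPM in the highest of PD454. Nes, the intermediate filament nestin, named after its values were seen, was 396 and 386 CPM in PD7591 with TGFb, against 25.2 and 15.4 in PD454 and 46.7 and 41.2 in PD883, and its difference over all treatments was 3.17 ± 0.23 (adjusted p = 7.30e-09).

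The genes far lower in PD7591 than in both other lines included a metabolic enzyme at high level, Gatm, which makes the precursor of creatine (chr2:122594473-122611277). It was 1.53, 2.82 and 3.55 CPM in PD7591, against 178, 205 and 234 in PD454 and 97.8, 133 and 200 in PD883. The groups lay far apart, at -5.95 ± 0.18 on the log2 scale (adjusted p = 5.81e-14), and at -6.33, -5.65 and -5.91 in DMSO, ionomycin and TGFb.

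Runx3, a RUNT-domain transcription factor, was 0 and 0.0436 CPM in PD7591 with DMSO and 0 and 0 with ionomycin, and 2.17 and 4.08 CPM with TGFb. In PD454 it was 49.2 and 37.9, 37.2 and 35.1, and 55.4 and 47.5 CPM in the same order, and in PD883 21.3 and 14.9, 15.1 and 16.1, and 45.6 and 33.8 CPM. PD7591 was below every other library at every treatment, and the difference depended on treatment (adjusted p = 0.000373). The overall log2 fold change was -5.41 ± 0.55 (adjusted p = 6.04e-07), and -8.58 when each group had its own mean, since fitted values near 0 counts depend on the model.

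Myh10, the heavy chain of nonmuscle myosin IIB, was 4.46 to 6.46 CPM in PD7591, against 72.9 to 171 in PD454 and 132 to 224 in PD883 (-4.55 ± 0.16, adjusted p = 4.59e-13). Ptges, which makes prostaglandin E2, was 1.06 to 7.69 CPM in PD7591, against 77 to 159 in PD454 and 75.5 to 228 in PD883 (-4.93 ± 0.35). Cacna1c, the pore of a voltage-gated calcium channel, was 0.0528 to 0.349 CPM in PD7591, against 8.32 to 22.4 in PD454 and 7.95 to 15.1 in PD883 (-6.18 ± 0.31, adjusted p = 4.44e-11). The Cacna1c difference was alike by treatment, at -6.08, -6.20 and -6.21.

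Also far lower were subunits of the proton pump, Atp6v0a4 (-7.51 ± 0.43) and Atp6v0e2 (-5.31 ± 0.31), the unconventional myosin Myo7a (-5.18 ± 0.36), the lipid desaturase Scd3 (-4.53 ± 0.32), whose reads may be shared with its close copies, the zinc finger factor Zfp503 (-4.39 ± 0.39), the vesicle protein Syt13 (-4.19 ± 0.33), the GTPase-activating protein Srgap1 (-4.15 ± 0.30), Lrmp (-5.18 ± 0.53) and the factor Sp8 (-4.67 ± 0.48). For Lrmp, Sp8 and Syt13 the ranges overlapped, because PD883 or PD454 was also low: Lrmp was at most 0.43 CPM in PD7591, against 18.4 to 27.9 in PD454 and 0.227 to 1.76 in PD883.

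**Figure D3:**
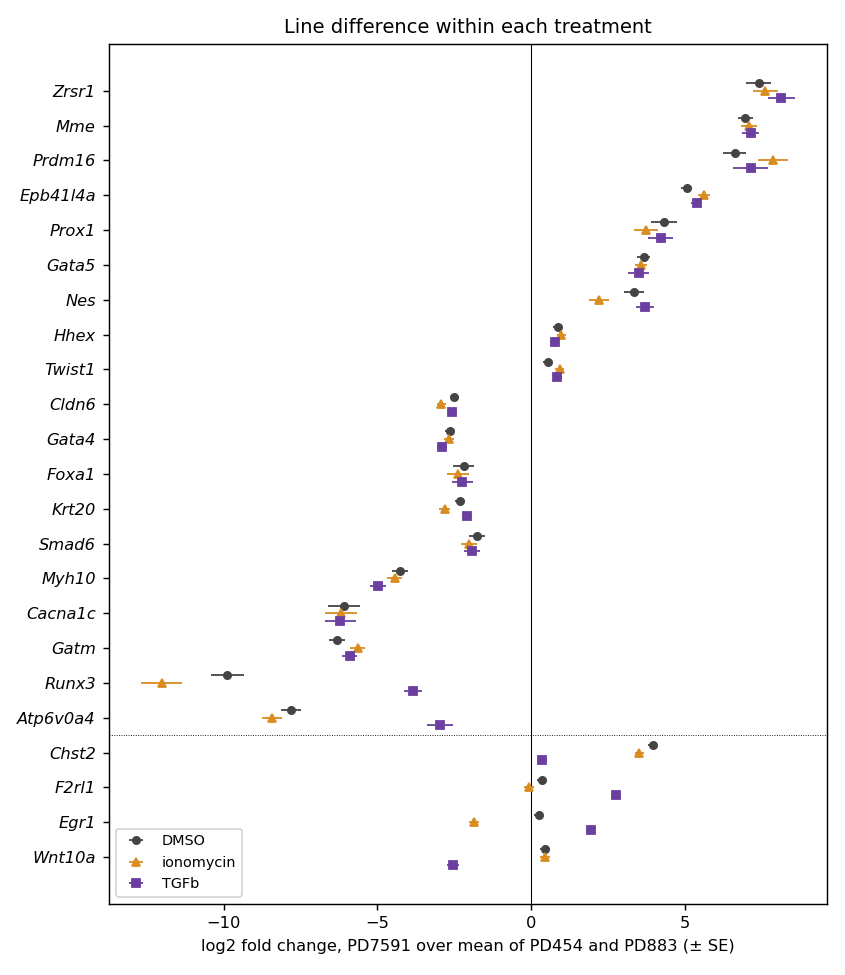
Log2 fold change of PD7591 over the mean of PD454 and PD883 within DMSO, ionomycin and TGFb, with bars for the SE. The genes above the dotted line were picked by hand, many of them from the stricter group, which requires the same sign in every treatment. Their kept sign in all 3 treatments is thus a description, with Zrsr1 at 7.39 to 8.13 and Gatm at -6.33 to -5.65. Runx3 and Atp6v0a4 among them also depended on treatment (adjusted p = 0.000373 and 0.00607 by the joint F test). The 4 genes below the line were chosen for their dependence on treatment.

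Of 34 tested genes of epithelial junctions and identity, 5 were higher in PD7591 (14.7%, against 16% of all genes) and 14 lower (41.2%, against 17.9%). Their median log2 fold change was -0.24. Of 10 keratins none was higher and 6 were lower (60%, median -0.68), but only 1 keratin was lower in the stricter group. Cldn6, a tight junction protein, was 25.1, 62.8 and 95.5 CPM in PD7591, against 232, 468 and 784 in PD454 and 159, 271 and 395 in PD883 (-2.66 ± 0.11, adjusted p = 1.94e-12). Krt20, a keratin of gut epithelium, was 25.9 to 101 CPM in PD7591, against 210 to 625 in PD454 and 142 to 308 in PD883 (-2.39 ± 0.13, adjusted p = 2.22e-10). Neither range overlapped.

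The general epithelial markers differed less. Cdh1, E-cadherin, had 543 and 628 CPM in PD7591 with DMSO, against 620 and 557 in PD454 and 781 and 522 in PD883, and the call was not made (-0.29 ± 0.23, adjusted p = 0.358). Epcam was low in all lines, with medians of 2.37 CPM in PD7591, 3.18 in PD454 and 2.02 in PD883 (-0.03 ± 0.17, adjusted p = 0.910). Krt8 was lower by a log2 fold change of -0.49 ± 0.12 and Krt19 of -1.23 ± 0.30 (adjusted p = 0.00332 and 0.00381). Krt8 was -0.19 against PD883 alone (adjusted p = 0.234) and -0.35 in the TGFb libraries alone (adjusted p = 0.195), and its adjusted p was 0.0737 with duplicates summed, while Krt19 was -1.72 in the TGFb libraries alone (adjusted p = 0.200). Krt18, at -0.30 ± 0.10 (adjusted p = 0.0232), was not called without library 2 (DMSO, -0.27), 3 or 4 (ionomycin, -0.27 and -0.29) of PD7591, and was 0.00 against PD883 alone. Lsr, a protein of tricellular junctions, was lower at -0.54 ± 0.08, and Elf3, an epithelial factor named after its values were seen, at -1.32 ± 0.27.

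Of 22 mesenchymal and EMT genes 6 were higher and 6 lower (27.3% each, against 16% and 17.9% of all genes, median -0.25). Twist1, an EMT factor, was 23.8, 42 and 51.9 CPM in PD7591, against 19.6, 26 and 38.6 in PD454 and 14.5, 17.8 and 24.2 in PD883 (0.77 ± 0.09, adjusted p = 3.46e-06). Prrx1, another EMT factor, was 0.0996 to 0.564 CPM in PD7591 and 0.876 to 7.11 in the others (-2.92 ± 0.32), and Snai1 was lower at -1.73 ± 0.33 and the matrix protein Sparc at -2.08 ± 0.27. Cdh2, N-cadherin, was called higher at 0.57 ± 0.14 (adjusted p = 0.00434), but at 0.36 against PD454 alone (adjusted p = 0.115), 0.30 in the ionomycin libraries alone (adjusted p = 0.056), 0.39 in the TGFb libraries alone (adjusted p = 0.223) and with duplicates summed (adjusted p = 0.0552) the call was lost. Vim, vimentin, had medians of 1720 CPM in PD7591, 2200 in PD454 and 2040 in PD883 (-0.38 ± 0.15, adjusted p = 0.0623). Zeb1 was called at 0.35 ± 0.12 (adjusted p = 0.0345), but the call was lost without any 1 of 11 libraries, at 0.27 to 0.36, and was 0.20 without the 4 libraries rich in short transcripts.

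Of 12 tested genes that mark the classical subtype in human tumours, none was higher and 8 were lower (66.7%, against 17.9% of all genes, median -1.65). Only 2 of the 12 were lower in the stricter group. Of 19 gastric and mucous genes 6 were higher and 10 lower (31.6% and 52.6%, against 16% and 17.9% of all genes, median -0.77). Cdh17, the cadherin of liver and intestine, was lower at -1.62 ± 0.25. Cldn18, the stomach claudin, was 0.106, 2.25 and 4.53 CPM in PD7591 and 0.323, 1.55 and 4.88 CPM in PD454, but 352, 1480 and 2360 CPM in PD883. Its fold change of -4.77 ± 0.33 is thus set by PD883. Muc1, a membrane mucin, was called higher (1.11 ± 0.23, adjusted p = 0.0012), yet at -0.33 against PD454 alone it was on the other side.

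Vil1, Cdhr5 and Nr1h4 were named after their values were seen. Vil1, villin, had 2.77 and 3.66 CPM in PD7591 with DMSO, against 37.6 and 32 in PD454 and 42.9 and 40 in PD883 (-2.67 ± 0.34 over all treatments, adjusted p = 1.06e-05). Cdhr5, a brush border cadherin, was lower at -3.77 ± 0.26 and Nr1h4, the bile acid receptor, at -1.51 ± 0.15. In the TGFb libraries alone Cdhr5 was -6.20 (adjusted p = 0.0584) and Apoa1 -3.16 (adjusted p = 0.151). Apoa1, an apolipoprotein counted among the hepatocyte markers, was lower at -1.75 ± 0.32. Of the 11 basal-like genes tested, 1 was higher and 3 lower (9.09% and 27.3%, against 16% and 17.9% of all genes, median -0.31).

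Of 58 tested enzymes that clear foreign compounds and oxidants, 2 were higher (3.45%, against 16% of all genes), 25 lower (43.1%, against 17.9%) and 31 not called. Their median was -0.59 against -0.01 over all genes. Gsta1, a glutathione transferase, had 7.19 and 6.37 CPM in PD7591 with DMSO, against 124 and 187 in PD454 and 35.1 and 68.9 in PD883 (-2.79 ± 0.29, adjusted p = 8.62e-07). Its neighbours Gsta2 and Gsta4 were lower at -3.02 ± 0.30 and -0.91 ± 0.13, and since Gsta1 and Gsta2 are near copies the authors' counting may split reads between them. Akr1b8, an aldo-keto reductase, was 18.9, 33 and 39.9 CPM in PD7591, against 68.3, 138 and 239 in PD454 and 67.4, 107 and 192 in PD883, with no overlap (-2.04 ± 0.20). Gstm1, Cyp1b1, Cyp2s1 and Aldh1l1, named after their values were seen, were lower at -0.95, -2.08, -2.03 and -1.76, while the efflux pump Abcg2 was higher at 1.13 ± 0.16.

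Of 37 drivers and tumour suppressors 8 were higher and 3 lower (21.6% and 8.11%, against 16% and 17.9% of all genes, median 0.12). Trp53 had medians of 2.92 CPM in PD7591, 2.91 in PD454 and 2.21 in PD883 (0.11 ± 0.22, adjusted p = 0.730). Erbb2, a receptor of the EGF family, was higher at 0.65 ± 0.11, Mtap, which recycles methionine, at 0.46 ± 0.08, and Ccnd2, a cyclin named after its values were seen, at 0.53 ± 0.16, a call lost without library 3 of PD7591 with ionomycin (0.48).

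Of 19 MAPK output genes, none was lower (against 17.9% of all genes) and 5 were higher (26.3%, against 16%), with a median of 0.23. They included Etv5, an ETS factor (0.84 ± 0.12), and the feedback inhibitors Spry1 (0.71 ± 0.16) and Dusp4 (0.59 ± 0.11). In the ionomycin libraries alone Spry1 was 0.14 (adjusted p = 0.566) and Dusp4 0.15 (adjusted p = 0.334), and with duplicates summed Spry1 had an adjusted p of 0.0539. Of 24 p53 targets 1 was higher and 9 lower (4.17% and 37.5%, against 16% and 17.9% of all genes, median -0.31). Cdkn1a, the p21 inhibitor of the cell cycle, had 41 and 50.5 CPM in PD7591 with DMSO, against 88.1 and 109 in PD454 and 189 and 147 in PD883 (-1.01 ± 0.23 over all, adjusted p = 0.00242). In the TGFb libraries alone it was -0.20 (adjusted p = 0.686), its difference depended on treatment (adjusted p = 0.0325), and with duplicates summed its adjusted p was 0.0992. Psrc1, Phlda3, Pmaip1 and Polk were lower at -1.06, -0.76, -0.92 and -0.69. Of 22 G2/M genes none was higher and 3 lower (13.6%, against 17.9% of all genes). Of 25 S phase genes 4 were higher (16%, as over all genes) and none lower.

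Of 37 genes of the TGFb pathway and SMAD feedback, 5 were higher (13.5%, against 16% of all genes) and 10 lower (27%, against 17.9%), with a median of -0.07. Id1, a target of BMP signals, had 52.8 and 53.5 CPM in PD7591 with DMSO, against 113 and 138 in PD454 and 182 and 181 in PD883 (-1.30 ± 0.09, adjusted p = 1.98e-09). Id3 was lower at -1.81 ± 0.25 and Id2 at -0.53 ± 0.15. Smad6, an inhibitor of BMP signals, was 2.27 to 4.56 CPM in PD7591, below all others at 7.61 to 19.5 CPM (-1.92 ± 0.18). The ligands Bmp4 and Inhbb were lower at -0.93 ± 0.19 and -3.86 ± 0.59, and Fstl1, a secreted follistatin relative, was higher at 2.53 ± 0.17. Fstl1 was 4.43 against PD454 alone but 0.65 against PD883 alone. Its range of 6.16 to 150 CPM in PD7591 overlapped 5.43 to 92.8 in PD883.

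Among Wnt genes, 6 of 33 were higher (18.2%, against 16% of all genes) and 8 lower (24.2%, against 17.9%), with a median of -0.14. The ligand Wnt4 was lower at -2.61 ± 0.25, the feedback target Axin2 at -2.26 ± 0.28, the factor Tcf7 at -0.96 ± 0.13 and the receptor Lgr4 at -1.05 ± 0.17, while the receptors Fzd3 and Fzd8 were higher at 1.74 ± 0.20 and 1.10 ± 0.14. Ror2, a Wnt5a receptor, had 0 counts in PD7591, against 18 in PD454 and 268 in PD883, and with PD7591 at the floor of 3 counts it was at least 5.37-fold lower than in PD454 and at least 76.2-fold lower than in PD883. Of 16 Notch and hedgehog genes 1 was higher (6.25%, against 16% of all genes) and 5 lower (31.2%, against 17.9%), among them Notch4 (-2.45 ± 0.31). Only 1 of the 16 was lower in the stricter group.

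Of 17 integrins 2 were higher and 8 lower (11.8% and 47.1%, against 16% and 17.9% of all genes, median -0.31). Itga3, a laminin receptor chain, was 869 to 937 CPM in PD7591, above all others at 474 to 811 CPM (0.46 ± 0.11), and Itgb1 was higher at 0.47 ± 0.10. The collagen receptor chain Itga1 and Itgb6, which activates TGFb, were lower at -1.54 ± 0.18 and -2.15 ± 0.36. Of 24 matrix proteases and inhibitors 8 were higher and 7 lower (33.3% and 29.2%, against 16% and 17.9% of all genes). Mmp14, a membrane collagenase, was higher at 1.05 ± 0.09 and Adamts9 at 1.86 ± 0.24, while Mmp15 was lower at -2.34 ± 0.23. The collagen Col5a1 and the proteoglycan Vcan were lower at -1.45 ± 0.19 and -0.92 ± 0.17.

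Of 26 chemokines and cytokines 9 were higher and 4 lower (34.6% and 15.4%, against 16% and 17.9% of all genes, median 0.19). Csf3, the growth factor of neutrophils, had 4.42 and 4.32 CPM in PD7591 with DMSO, against 1.48 and 1.53 in PD454 and 0.285 and 0.773 in PD883. With ionomycin it had 31.8 and 20.4 CPM in PD7591, against 0.185 and 0.349 in PD454 and 0.0994 and 0.391 in PD883. Every PD7591 library was above all others (3.74 ± 0.54, adjusted p = 3.69e-05). Cxcl5 and Cxcl1, ligands of the receptor CXCR2, were higher at 2.87 ± 0.47 and 1.63 ± 0.30. Cxcl1 was 1.42 in the DMSO libraries alone (adjusted p = 0.0517) and 0.93 in the TGFb libraries alone (adjusted p = 0.267), and Cxcl5 was 1.08 with TGFb alone (adjusted p = 0.0903). Mmp3, a matrix protease, had 36.5 and 43 CPM in PD7591 with ionomycin and at most 0.299 in its other libraries, against at most 0.523 CPM in PD454 and 0.0994 in PD883.

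Of 35 interferon-stimulated genes, 8 were higher and 5 lower (22.9% and 14.3%, near the 16% and 17.9% of all genes, median 0.10). Ifit2, an RNA-binding antiviral protein, was 2.43 to 11 CPM in PD7591, above all others at 0.231 to 1.86 CPM (3.07 ± 0.23). The DNA sensor genes Ifi204 and Ifi203, neighbours on chromosome 1, were lower at -1.09 ± 0.20 and -1.47 ± 0.19, and reads of such close copies may be shared.

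Of 34 clustered and other protocadherins, which are adhesion proteins, 14 were higher (41.2%, against 16% of all genes) and 9 lower (26.5%, against 17.9%). Pcdhga6, Pcdhgb4 and Pcdhgb6 were higher at 4.95 ± 0.40, 4.67 ± 0.54 and 2.29 ± 0.26, and Pcdhgb2 was lower at -6.96 ± 0.39, with at most 0.299 CPM in PD7591 against at least 4.18 CPM in the others. Pcdhga and Pcdhgb genes share their last exons, so the counts of its members are uncertain. Of 23 imprinted genes 7 were higher (30.4%, against 16% of all genes), Zrsr1 among them, and 3 lower (13%, against 17.9%). Grb10, an imprinted growth inhibitor, was at most 0.0538 CPM in PD7591, against 4.34 to 66.5 in PD454 and at most 0.202 in PD883, so its fold change (-5.98 ± 1.22) reflects PD454; it was not called without library 12 (TGFb PD883, -4.12) or when each group had its own mean (-5.00).

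**Figure D4:**
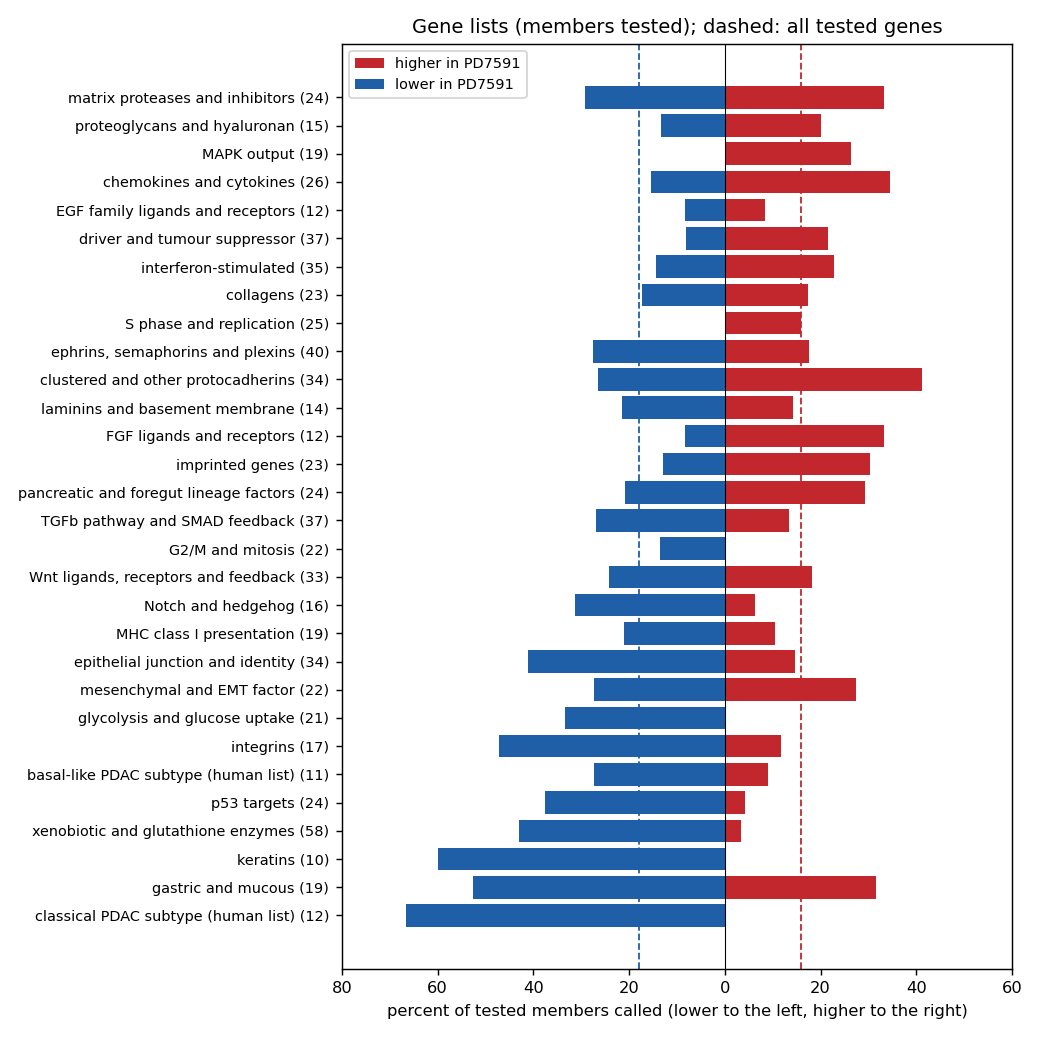
Percent of the tested members of each list called higher (red, to the right) or lower (blue, to the left) in PD7591, with the number tested in brackets and lists sorted by median log2 fold change. Dashed lines mark the 16% higher and 17.9% lower of all tested genes. Keratins, classical subtype genes and xenobiotic enzymes reach 60%, 66.7% and 43.1% lower. In the stricter group only 1 keratin, 2 classical subtype genes and 9 xenobiotic enzymes were lower.

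Some differences depended on treatment. For 736 genes (5.52%) the line difference was not equal in the 3 treatments, among them 89 of the stricter 686 (13%). Without any 1 library this count ran from 243 to 834: it was 415 and 421 without library 1 or 2 (DMSO PD7591), 476 and 358 without 3 or 4 (ionomycin PD7591), 243 and 305 without 5 or 6 (TGFb PD7591) and 437 and 463 without 15 or 16 (ionomycin PD454). Among the 6 genes with the smallest p were Chst2, Egr1, Sdcbp2, F2rl1 and Wnt10a.

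F2rl1, the protease-activated receptor PAR2, had 55.1 and 48.5 CPM in PD7591 with DMSO, against 48.9 and 56.1 in PD454 and 27 and 35.7 in PD883. With TGFb it had 495 and 488 CPM in PD7591, against 61.8 and 75.8 in PD454 and 67.2 and 86.9 in PD883. The log2 differences were 0.35, -0.07 and 2.75 in DMSO, ionomycin and TGFb (adjusted p of the dependence 3.18e-05). Egr1, an immediate early factor, had 48 and 56.2 CPM in PD7591 with ionomycin, against 268 and 237 in PD454 and 132 and 149 in PD883, and 214 and 190 CPM in PD7591 with TGFb, against 69.8 and 66.9 in PD454 and 46.1 and 36.4 in PD883. Its differences were 0.24, -1.85 and 1.93, so Egr1 was high with the ionophore in the other lines and with the cytokine in PD7591.

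Chst2, a sulfotransferase, had 40 and 37.9 CPM in PD7591 with DMSO, against 0.823 and 1.44 in PD454 and 5.59 and 5 in PD883, and with TGFb 85.1 and 84.6 CPM in PD7591, against 44.7 and 50.2 in PD454 and 95.6 and 87.4 in PD883. The Chst2 difference was therefore large with DMSO (3.96) and small with TGFb (0.37). Wnt10a, a Wnt ligand, had 6.6 and 6.72 CPM in PD7591 with TGFb, against 59.5 and 50.5 in PD454 and 31.8 and 23.4 in PD883 (-2.54), and 0.46 and 0.44 were its differences in DMSO and ionomycin. Sdcbp2, a syntenin, had differences of -2.20, -2.15 and 0.98.

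Genes of chromosome 15 were lower in PD7591 as a block. Over 433 genes of that chromosome at 5 CPM or more, the median log2 fold change was -0.345, and 55.4% were called lower and 4.16% higher, against 18.7% and 16% of all 10274 such genes. The median was -0.37 against PD454 and -0.30 against PD883, and -0.33, -0.34 and -0.32 in DMSO, ionomycin and TGFb. All 16 runs of 50 neighbouring genes along it had medians below 0, from -0.40 to -0.25. The runs were taken in steps of 25 genes, so each overlaps the next. The lowest run on any other chromosome was -0.407. By library, the median deviation from the mean of the 3 lines was -0.238 to -0.196 in PD7591, 0.139 to 0.163 in PD454 and 0.0435 to 0.102 in PD883. Such a separation was not particular to chromosome 15. All PD7591 libraries also lay below all others on chromosomes 2, 3 and 13 (median log2 fold changes -0.147, -0.178 and -0.162). They lay above all others on chromosomes 5, 8 and 16 (0.112, 0.126 and 0.211). DNA copy number was not measured, and a difference in it was not tested.

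Chromosome 16 showed the reverse in part, with a median of 0.21 over 339 genes and 39.5% called higher. That difference was 0.32 against PD883 and 0.07 against PD454. The library medians of chromosome 16 were 0.107 to 0.158 in PD7591, 0.0405 to 0.0847 in PD454 and -0.207 to -0.168 in PD883. Etv5 and Fstl1, named above as higher, lie on chromosome 16, and Krt8 and Krt18, named as lower, on chromosome 15.

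**Figure D5:**
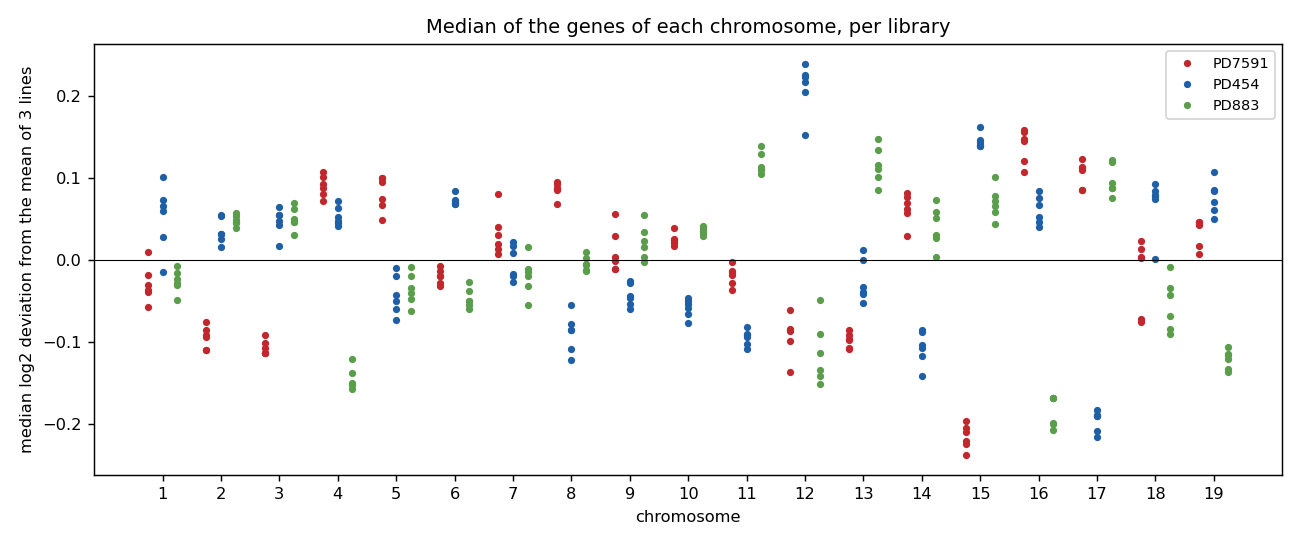
Median over the genes of each autosome of the log2 deviation from the mean of the 3 lines at the same treatment, 1 point per library, with PD7591 left of PD454 and PD883. On chromosome 15 the 6 PD7591 libraries lie between -0.238 and -0.196, below all 12 others. They also lie below all others on chromosomes 2, 3 and 13 and above them on 5, 8 and 16.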

How the data were processed

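RNA-seq counts of 18 libraries were analysed. Per the submitters' processing notes, reads were handled with CASAVA, Trimmomatic 0.32, STAR and featureCounts on mm10; the sources used here do not give settings, strand mode or annotation release, nor which of the RNeasy Mini and NucleoSpin kits each library had. The deposited table holds raw read counts per gene symbol, which the authors did not scale between libraries. Of 24527 entries, all but 109 were placed on 1 chromosome by RefSeq or GENCODE names, and 26 names had become dates.

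In R 4.3.3 with edgeR 4.0.16, filterByExpr kept 13827 entries and TMM factors scaled the libraries. After 447 entries on X or Y and 42 unplaced ones were left out, 13338 genes were tested. The robust quasi-likelihood F test used a model of line and treatment, with PD454 and PD883 weighted equally; differences within treatments, and their equality (a joint F test), came from a fit in which each group had its own mean. Calls had a Benjamini-Hochberg adjusted p under 0.05. The ± of a log2 fold change is its SE, its size over the square root of F. CPM are TMM-scaled; levels over 6 libraries are lowest, median and highest. Floors stand for counting error only, because reads lacked molecular identifiers and are not independent.

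Members and lists were chosen with earlier results of these data known. Named genes follow a rule (the 15 largest differences each way in the stricter group at 5 CPM or more, up to 3 higher and 3 lower members per list, a panel, and the 6 smallest p for treatment dependence) or are said to be named after their values were seen; the text gives only some of them. Alternatives included DESeq2 1.42.0, limma-voom (limma 3.58.1), other scaling, each treatment or other line alone, summed duplicates, and leaving out each library. Scripts were tested on simulated data. Some genes that met the rule are not reported here.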

Additional observations from a re-analysis of the deposited data

Results flagged for a closer look

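For 28 of the 126 genes followed in every alternative, the PD7591 difference was not equal in DMSO, ionomycin and TGFb. The values below are Benjamini-Hochberg adjusted p of edgeR's joint test of that equality. They were 1.04e-06 for Egr1 and for Chst2, 1.62e-05 for Sdcbp2, and 3.18e-05 for Wnt10a and for F2rl1, all chosen for this dependence.

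Among genes lower in PD7591, the adjusted p was 0.000373 for Runx3, 0.000385 for Pmaip1, 0.00287 for Id3, 0.00326 for Cyp1b1, 0.00344 for Akr1b8, 0.004 for Zfp503, 0.00568 for Elf3, 0.00607 for Atp6v0a4, 0.00707 for Cdx2, 0.00853 for Ptges, 0.0304 for Vil1, 0.0325 for Cdkn1a and 0.0492 for Klf4. The Pmaip1 difference was -1.05, -1.92 and 0.03 in DMSO, ionomycin and TGFb, and that of Atp6v0a4 was -7.82, -8.42 and -2.97.

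Among genes higher in PD7591, it was 0.000619 for Csf3, 0.00102 for C2, 0.00157 for Glrp1, 0.00485 for Megf6, 0.00561 for Cxcl5, 0.00751 for Abcg2, 0.00805 for Sh3tc2, 0.0152 for Spry1, 0.0323 for Dusp4 and 0.046 for Adamts9. C2, Csf3 and Cxcl5 differed most with ionomycin, by 7.79, 6.66 and 4.68 on the log2 scale. The groups of line and treatment hold 2 libraries each, too few to look for single outlying libraries.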

How the results depend on the processing

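The count of genes called (4516) stayed within 1.5 times under other scaling, DESeq2 (4895), limma-voom (4601), no filter (4133) and without either other line; it was 1935 with duplicates summed, 2155 in the DMSO libraries alone, 1330 in the TGFb libraries alone and 1406 at a log2 fold change of at least 1, and 3702 to 4830 without 1 library. The stricter group (686) ran from 377 to 681 without 1 library, lowest without library 5 (377) or 6 (423) of PD7591 with TGFb, and was 427 without libraries 3 and 16, which hold most Rn45s, an alternative chosen after seeing the data; 423 of those 427 were among the 686. Treatment dependence (736 genes) was the least stable count: 1534 by DESeq2, 1813 without the 4 libraries rich in short transcripts (8, 12, 14 and 18, all of the other lines), 263 without libraries 3 and 16, and 243 to 834 without 1 library. The cause was not tested. Library totals as the scaling moved the median of all genes from -0.01 to 0.01 and gave 52.3% of calls higher. The chromosome 15 median stayed between -0.37 and -0.301 under the 7 alternatives run for it, all chosen after seeing the data. No paired analysis was possible because the groups share no library numbers.

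Over 126 genes and 4404 alternative values, 4238 kept direction and side of the threshold, 114 lost the call, 19 gained it and 33 changed sign. Most sign changes were of genes with no call. Foxa2 was 0.0137 with library totals, 0.0399 with limma-voom, 0.0403 with a mean for each group, 0.231 in DMSO and 0.137 in TGFb alone, 0.262 without PD454, 0.00525 without the libraries with most Rn45s and -0.106 to 0.0776 without 1 library. Epcam was 0.000511 in ionomycin and 0.235 in TGFb alone, 0.298 without PD454, 0.0293 without the short-transcript libraries and -0.122 to 0.0455 without 1 library. Trp53 was -0.0108 to 0.19 without 1 library. Vim was 0.0865 in ionomycin alone. Without PD454, Cdh1 was 0.0451 and Krt18 0.00364; without PD883, Muc1 was -0.326. Pmaip1 was 0.0309 in TGFb alone. Of the genes chosen for treatment dependence, Wnt10a was 0.464 in DMSO and 0.436 in ionomycin alone; Egr1 -1.85 in ionomycin alone, -0.121 without PD883 and -0.0575 without the short-transcript libraries; F2rl1 -0.0669 in ionomycin alone; and Sdcbp2 0.985 in TGFb alone.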

Other observations

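Genes of the stricter group lay side by side in places. Runs of 10 neighbouring tested genes held at least 4 lower members at Ifi204, Mndal, Ifi203 and Ifi202b on chromosome 1, at Gsta4, Gsta1, Gm3776 and Gsta2 on chromosome 9, at Elf3, Rnpep, Csrp1 and Phlda3 on chromosome 1, at Diras2, Syk, Nfil3 and Ror2 on chromosome 13 and at 6 genes from Cfap69 to Crot on chromosome 5. Higher members lay together in the protocadherin cluster on chromosome 18.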
